A study of Arabidopsis thaliana with 24 samples.

Results

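The comparison sets hypocotyls after 6 h of white light against hypocotyls after 1 h of white light in wild-type Arabidopsis thaliana seedlings, so that changes completed within the first hour can be separated from later ones. The members are the 3 samples of each light time, 6 of the 24 samples in the series, and the values were joined gene by gene over 33557 annotated genes. All seedlings were triggered to germinate by 3 h of white light and a 5 min far-red pulse of 2 µmol m-2 s-1 and were then kept in darkness for 4 days. The 6 h and 1 h groups were moved to white light of 70 µmol m-2 s-1, the third hypocotyl group of 3 samples stayed dark, and hypocotyls and cotyledons were harvested separately. Each group is represented in the deposited tables by 1 pooled value per gene in FPKM (fragments per kilobase of transcript, scaled to the mapped fragments of the library), so no value per sample, SD or n can be given for a level. The number of reads behind each value is not known here, so no counting interval was computed. The labels name the 3 samples as biological repeats, and their spread enters only through the test statistics of the deposited tables.

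A seedling that germinates in the dark grows a long hypocotyl and keeps its plastids undeveloped. Light seen by phytochromes and cryptochromes ends this programme: PIF transcription factors are removed, HY5 accumulates, elongation slows, plastids turn green, and flavonoid sunscreens are made. The hypocotyl is the organ whose growth light arrests, by contrast with the cotyledons, which light expands. The same dark-to-light step also sets the phase of the circadian clock, in which CCA1 and LHY act in the morning and genes carrying the evening element peak later in the day.

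The summed FPKM was 865820 in the dark, 913024 at 1 h and 871657 at 6 h. These sums include the values listed for 7 genes too abundant to test, some of them 0, so small differences between the sums cannot be read. Of 19497 genes with a usable test in both tables, 222 (1.14%) rose and 565 (2.9%) fell at 6 h against 1 h at a Benjamini-Hochberg adjusted p under 0.05. The test divided the difference of the authors' 2 log2 folds against dark by the combined standard error (SE) recovered from the authors' test statistics, with a two-sided normal p. Each group has 1 pooled value in the tables, so no exact test over samples could be made, and each gene is given below with its difference, the SE and whether it passed that threshold, without a p of its own. Both folds share the dark samples, whose spread enters the SE of each fold. Among 18296 genes at 1 FPKM or more in either light group, 1313 (7.18%) were at least 2-fold higher and 1867 (10.2%) at least 2-fold lower, on the scale log2((6 h + 1)/(1 h + 1)), hereafter the log2 ratio. The median log2 ratio over all genes tested was -0.14. Centring on that median gave 304 risen and 434 fallen genes, and 1655 genes past 2-fold higher with 1454 past 2-fold lower, so the excess of falls in the 2-fold counts turned into an excess of rises. In bulk tissue, less RNA per cell and fewer cells of a type cannot be told apart.

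**Figure D1:**
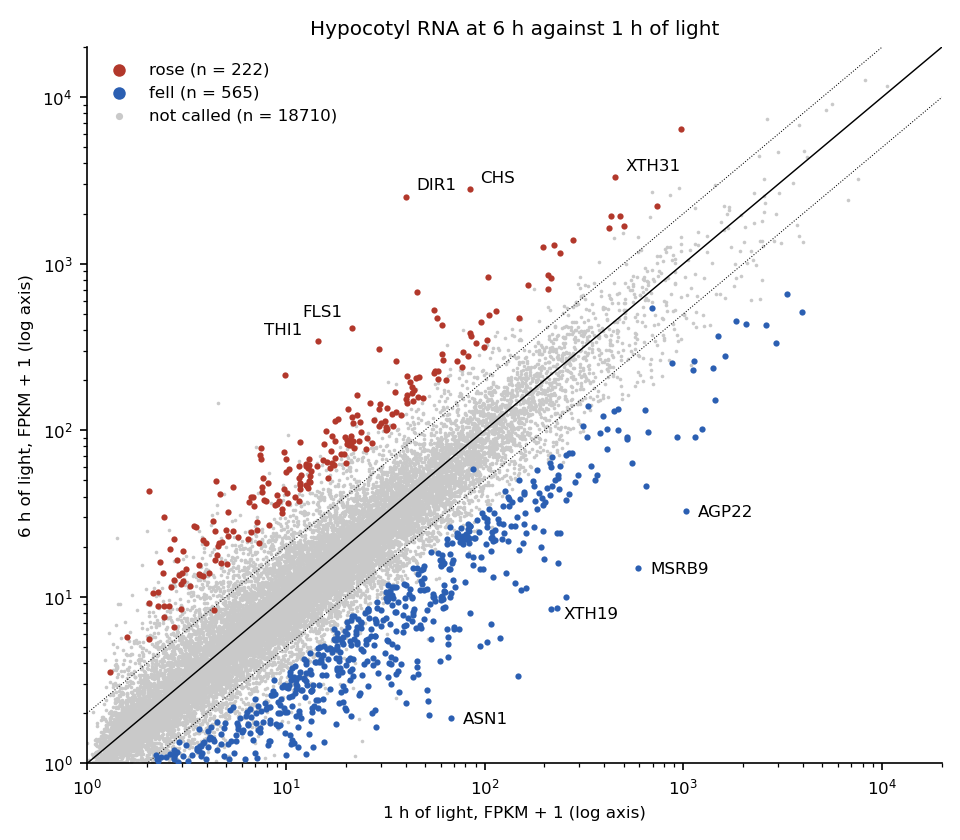
Each point is 1 of the 19497 tested genes, with the pooled hypocotyl FPKM + 1 at 6 h (vertical, log axis) against that at 1 h (horizontal, log axis); red points rose (222), blue points fell (565) and grey points were not called, the solid line marks equality and the dotted lines mark 2-fold. DIR1, CHS and XTH31 reach 2530, 2815 and 3323 FPKM at 6 h, far above the line, while AGP22, MSRB9 and XTH19 lie far below it.

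Among the largest rises, DIR1, a lipid transfer protein known from systemic acquired resistance (chr5:19646232-19646802), was at 2530 FPKM at 6 h, against 39.2 FPKM at 1 h, 64.5-fold higher (log2 difference 6.01 ± 0.78 SE). CHS, which makes the chalcone from which all flavonoids derive, was at 2815 FPKM at 6 h, against 83.1 FPKM at 1 h (33.9-fold higher; log2 difference 5.08 ± 0.79 SE), and its deposited locus (chr5:4488688-4495585) is shared with another gene. THI1, which makes the thiazole ring of thiamine (chr5:22246592-22248332), was at 341 FPKM at 6 h, against 13.6 FPKM at 1 h (25.2-fold higher; log2 difference 4.65 ± 0.66 SE). All 3 genes had already been called above dark at 1 h by the authors' q. Also among the 8 largest rises were FLS1 (flavonol synthase), MSRB6 (a methionine sulfoxide reductase), FAH1 (ferulate 5-hydroxylase, for sinapate esters), AT2G23910 (a protein related to cinnamoyl-CoA reductase) and AT2G22590 (a UDP-glycosyltransferase). Their 6 h values ran from 29.3 FPKM for FAH1 (1.42 at 1 h) to 675 FPKM for MSRB6 (44.8 at 1 h).

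Among the largest falls, AGP22, an arabinogalactan protein of the cell surface (chr5:21603620-21604231), was at 31.9 FPKM at 6 h, against 1027 FPKM at 1 h, 32.2-fold lower (log2 difference -5.01 ± 0.59 SE). MSRB9, a methionine sulfoxide reductase (chr4:11591116-11592238), was at 13.9 FPKM at 6 h, against 589 FPKM at 1 h (42.3-fold lower; log2 difference -5.40 ± 0.57 SE). ASN1, the dark-induced asparagine synthetase (chr3:17437884-17441243), was at 0.868 FPKM at 6 h, against 66.4 FPKM at 1 h (76.5-fold lower; log2 difference -6.26 ± 0.68 SE). AGP22 and MSRB9 were not called against dark at 1 h, whereas ASN1 had already come down from its dark value of 174.9 FPKM. The peroxidase gene AT4G30170, the metal-binding-domain gene AT5G24580, the lipid transfer gene AT4G12520 and XTH19, a xyloglucan endotransglucosylase, were 28.3-fold to 53.6-fold lower. The fall with the largest log2 ratio in size, of AT4G39366 (2.37 FPKM at 6 h, against 146 FPKM at 1 h), is set aside, because the authors' q called this very short locus at neither time although the test statistic gave a call. In all, 12 of the 787 called genes (4.04% of those tested) were called at neither time by the authors' q.

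A set of 6 classes describes the timing, using the authors' q under 0.05 against dark at each time and at least a 2-fold log2 ratio. The classes share their values with the folds and are therefore counts without a test, over 19552 genes with test status OK at both times. A late rise was not called at 1 h, was called higher at 6 h and was at least 2-fold higher at 6 h than at 1 h; 745 genes (3.81%) met it. The mirror class, late falls, held 938 genes (4.8%). Further rises, called higher at both times with at least 2-fold more at 6 h, numbered 357 (1.83%), and further falls numbered 267 (1.37%). Transient rises, called higher at 1 h and at least 2-fold lower at 6 h than at 1 h, numbered 425 (2.17%). The reverse, transient falls, numbered 40 (0.205%). Some members of each class also passed the direct test between the light times: 109 late rises, 275 late falls, 100 further rises, 123 further falls, 157 transient rises and 9 transient falls.

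Of the 1943 genes (9.94%) that the authors' q called higher than dark at 1 h, 425 (21.9%) were transient. Another 789 stayed higher within 2-fold of the 1 h value, and 357 rose further by at least 2-fold. The rest were no longer called higher than dark at 6 h, without the 2-fold drop of the transient class. Of the 1019 genes (5.21%) lower at 1 h, 40 (3.93%) were transient, 566 stayed lower within 2-fold, and 267 were at least 2-fold lower again. Here the rest were no longer called lower than dark at 6 h, without a 2-fold return. At 6 h, 155 of the 425 transient rises were below the dark level by the authors' q, 53 were still above it and 217 were called neither way. Over the 40 transient falls, 12 were above dark at 6 h, 1 was below and 27 were called neither way.

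**Figure D2:**
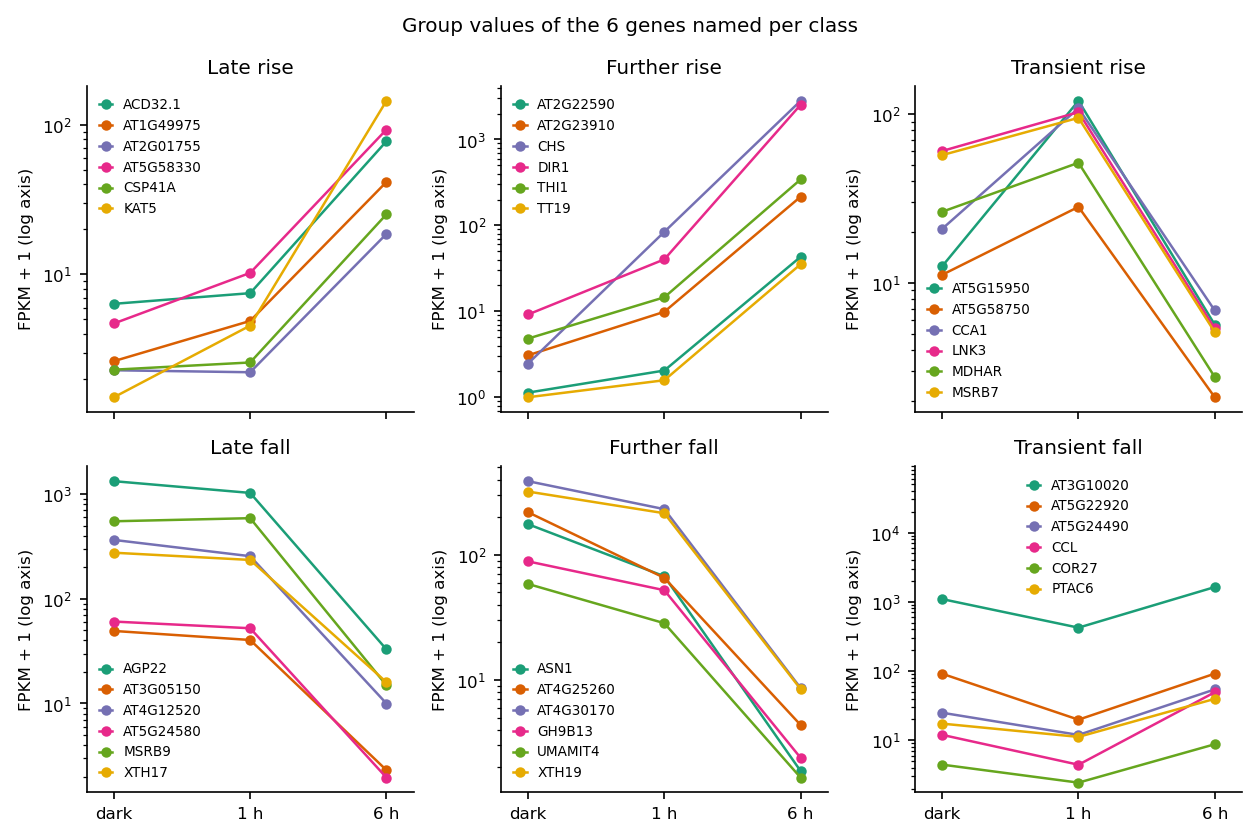
Pooled hypocotyl FPKM + 1 (vertical, log axis) in the dark, at 1 h and at 6 h of light for the 6 genes named in each of the 6 timing classes; each line joins the 3 group values of 1 gene, with no error bar because the tables hold 1 value per group. Late rises and late falls were not called against dark at 1 h, although KAT5 stood at 0.507 FPKM in the dark and 3.55 FPKM at 1 h; further rises and falls were called at both times, and the transient classes turn back after 1 h.

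Of 17 flavonoid enzyme genes, 10 could be tested; 6 of these rose and none fell, and 14 of the 16 at 1 FPKM or more were at least 2-fold higher. The median log2 ratio of the 10 was 2.72, beside -0.14 over all genes tested. The 6 that rose follow the pathway from its entry to its glycosides. CHI, chalcone isomerase, was at 529 FPKM at 6 h, against 54.7 FPKM at 1 h, and its helper CHIL was at 305 FPKM at 6 h, against 28.5 FPKM at 1 h. TT7, which hydroxylates the B ring, was at 36.8 FPKM at 6 h, against 6.90 FPKM at 1 h (log2 difference 2.41 ± 0.68 SE). FLS1 was at 411 FPKM at 6 h, against 20.5 FPKM at 1 h (log2 difference 4.32 ± 1.15 SE). UGT78D1, a flavonol rhamnosyltransferase, was at 40.7 FPKM at 6 h, against 3.68 FPKM at 1 h. Each of these genes was several-fold higher at 6 h than at 1 h, and CHS, described above, completes the 6.

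Enzymes of the anthocyanin end of the pathway were near 0 at 1 h. DFR was at 10.2 FPKM at 6 h, against 0.0382 FPKM at 1 h, LDOX at 9.06 FPKM at 6 h, against 0.0407 FPKM at 1 h, and TT19, a glutathione transferase needed for anthocyanin deposition, at 34.3 FPKM at 6 h, against 0.577 FPKM at 1 h. TT19 was listed at 0 in the dark, and all 3 lacked a test between the light times because of a low or zero value. Against dark at 6 h, the authors' q called TT19 higher and called neither DFR (q = 0.300) nor LDOX (q = 0.423). F3H, which feeds both flavonols and anthocyanins, was at 702 FPKM at 6 h, against 177 FPKM at 1 h and missed the threshold. UGT78D2, a flavonoid glucosyltransferase (165 at 6 h against 172 at 1 h), and OMT1, a methyltransferase (525 at 6 h against 502 at 1 h), were flat in FPKM. None of 13 tested flavonoid regulators rose or fell (median log2 ratio -0.10), beside 4.04% called among all genes tested. At that share few calls would be expected in a list of this size. MYB12, a flavonol activator, was at 41.8 FPKM at 6 h, against 20.4 FPKM at 1 h. MYB75, an anthocyanin activator, was at 2.00 FPKM at 6 h, against 3.78 FPKM at 1 h. Of 20 tested general phenylpropanoid genes, FAH1 and 4CL3 rose and none fell, with a median of 0.44. 4CL3, a coumarate ligase isoform, was at 31.3 FPKM at 6 h, against 4.13 FPKM at 1 h (log2 difference 2.92 ± 0.83 SE).

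The chloroplast lists held more rises than falls among photosystem, antenna and Calvin cycle genes, although most members were not called. The shares over all genes tested were 1.14% risen and 2.9% fallen. Of 34 tested photosystem and electron transport genes, 12 rose and none fell (median log2 ratio 1.61), and 25 were further rises. PSBTN, a small photosystem II subunit, was at 1267 FPKM at 6 h, against 195 FPKM at 1 h (log2 difference 2.70 ± 0.55 SE). PETC, the Rieske iron-sulfur protein, was at 142 FPKM at 6 h, against 28.7 FPKM at 1 h, and LFNR2, a ferredoxin-NADP reductase, was at 38.6 FPKM at 6 h, against 5.70 FPKM at 1 h. PSBQ-2, of the oxygen-evolving complex, was at 58.1 FPKM at 6 h, against 11.9 FPKM at 1 h. These 4 genes were 4.89-fold to 6.77-fold higher at 6 h. FD1, a ferredoxin (909.5 at 6 h against 695 at 1 h), and PSBS, which dissipates excess light (417 at 6 h against 295 at 1 h), had reached most of their 6 h FPKM by 1 h and were not called.

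Of 20 tested antenna genes 3 rose and none fell (median 1.19), with 13 at least 2-fold higher. LHCA2, of the photosystem I antenna, was at 202 FPKM at 6 h, against 57.3 FPKM at 1 h. LHCA5 was at 66.6 FPKM at 6 h, against 9 FPKM at 1 h at a locus shared with another gene, and LHCB1.3 was at 1153 FPKM at 6 h, against 238 FPKM at 1 h with LHCB1.1 and LHCB1.2 as near copies, so both are uncertain. Of 21 Calvin cycle genes 6 rose and none fell (median 1.53). RBCS1A, a Rubisco small subunit, was at 1945 FPKM at 6 h, against 433 FPKM at 1 h (log2 difference 2.17 ± 0.63 SE), and RCA, Rubisco activase, was at 446 FPKM at 6 h, against 94.8 FPKM at 1 h (log2 difference 2.23 ± 0.54 SE). GAPB, the plastid glyceraldehyde phosphate dehydrogenase, was at 91.3 FPKM at 6 h, against 16.1 FPKM at 1 h, and FBA2, a plastid aldolase, was at 134 FPKM at 6 h, against 28.5 FPKM at 1 h. These genes were also above dark at 1 h, so the rise had begun by 1 h, and their levels were higher again at 6 h.

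Of 26 chlorophyll synthesis genes tested, none rose and 1 fell, with a median of 0.74. These counts are near the 1.14% risen and 2.9% fallen among all genes tested. The fallen gene was PORA, the light-sensitive protochlorophyllide reductase of etiolated seedlings (chr5:21990912-21992812), at 0.727 FPKM at 6 h, against 16.9 FPKM at 1 h (23.3-fold lower; log2 difference -4.54 ± 0.74 SE). PORA stood at 15.5 FPKM in the dark and was not called at 1 h. PORB, the reductase that stays on in the light, was at 46.5 FPKM at 6 h, against 29.9 FPKM at 1 h, and CHLG, chlorophyll synthase, was at 40.5 FPKM at 6 h, against 10.7 FPKM at 1 h; neither was called. Of 21 photoprotection genes, NPQ1, violaxanthin de-epoxidase (15.7 at 6 h against 3.41 at 1 h), and HHL1, which helps repair photosystem II (66.9 at 6 h against 16.6 at 1 h), rose and none fell (median 0.25). The early light-induced proteins ELIP1, at 1259 FPKM at 6 h, against 821 FPKM at 1 h, and ELIP2, at 213 FPKM at 6 h, against 232 FPKM at 1 h, were not called, having come up from 35.7 and 11.4 FPKM in the dark.

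The plastid sigma factor SIG5 ran the other way. It was at 1.83 FPKM in the dark, 192 at 1 h and 38.1 at 6 h, a fall of 5.04-fold between the light times (log2 difference -2.33 ± 0.65 SE) that left it above dark.

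Among the 6 late rises named by size, ACD32.1, an alpha-crystallin domain protein, was called (76.8 at 6 h against 6.49 at 1 h), although its locus is shared. KAT5, a 3-ketoacyl-CoA thiolase, had the largest log2 ratio of the class, 5.00, at 144 FPKM at 6 h, against 3.55 FPKM at 1 h, but an SE of 3.171 and a shared locus left it uncalled. The RNA-binding chloroplast protein gene CSP41A (24.2 at 6 h against 1.57 at 1 h), the malate dehydrogenase gene AT5G58330 (92.2 at 6 h against 9.24 at 1 h), AT1G49975 (40.6 at 6 h against 3.88 at 1 h) and AT2G01755 (17.7 at 6 h against 1.22 at 1 h) were not called either. EXPB3, a beta-expansin, was both a late rise and called (84.0 FPKM at 6 h, against 10.8 FPKM at 1 h; log2 difference 2.96 ± 0.56 SE). Its 1 h value was below its dark value of 13.2 FPKM. A late rise can have begun by 1 h, because a gene not called at 1 h may already stand above dark. In KAT5, AT5G58330 and AT1G49975 the log2 folds of 1 h over dark were 2.806, 1.321 and 1.253, each past 2-fold without a call. In ACD32.1, CSP41A and AT2G01755 the same folds were 0.277, 0.273 and -0.080.

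Cell wall loosening genes both fell and rose more often than all genes tested, of which 2.9% fell and 1.14% rose. Of 41 tested expansin and XTH genes, 13 fell and 3 rose (median log2 ratio -1.06), with 8 late falls and 11 further falls among the 50 members. XTH genes encode xyloglucan endotransglucosylases, which cut and rejoin wall xyloglucan, and expansins loosen walls without cutting them. XTH19 was at 7.44 FPKM at 6 h, against 214 FPKM at 1 h (28.8-fold lower; log2 difference -4.85 ± 0.58 SE). Its close relatives XTH17, at 15.0 FPKM at 6 h, against 234 FPKM at 1 h, and XTH18, at 15.9 FPKM at 6 h, against 199 FPKM at 1 h, fell by 15.7-fold and 12.5-fold. XTH5 was at 1.16 FPKM at 6 h, against 13.4 FPKM at 1 h. The expansins EXPA11 (34.8 at 6 h against 196 at 1 h), EXPA1 (23.2 at 6 h against 125 at 1 h) and EXPA9 (49.3 at 6 h against 225 at 1 h) fell too. In XTH17, XTH18 and EXPA1 the 1 h value was within 1.5-fold of the dark value, and these genes were late falls.

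Not all wall genes fell. XTH31, at 3323 FPKM at 6 h, against 449.9 FPKM at 1 h (7.39-fold higher; log2 difference 2.88 ± 0.63 SE), and XTH32, at 425 FPKM at 6 h, against 60.4 FPKM at 1 h (log2 difference 2.82 ± 0.73 SE), rose, both from still lower dark values. The list of 19 tested cellulose synthase and other wall genes had 2 falls and no rise (median -0.24). These were FLA9, a fasciclin-like arabinogalactan protein, at 150.5 FPKM at 6 h, against 1439 FPKM at 1 h (log2 difference -3.26 ± 0.69 SE), and AGP21, at 237 FPKM at 6 h, against 1409 FPKM at 1 h (log2 difference -2.57 ± 0.58 SE). The primary wall cellulose synthases CESA1 (366 at 6 h against 312 at 1 h), CESA3 (332 at 6 h against 248 at 1 h) and CESA6 (144 at 6 h against 132 at 1 h) were within 1.5-fold and not called.

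Beside these falls, the markers of epidermis, vascular and endodermal cells summed to 6381 FPKM in the dark, 6974 at 1 h and 4665 at 6 h, with 2 of 22 tested fallen and none risen. The wax gene CER1 was at 90.0 FPKM at 6 h, against 520.4 FPKM at 1 h, and CER4 was low, at 0.0938 FPKM at 6 h, against 1.48 FPKM at 1 h. PDF1, an epidermal marker, was at 162 FPKM at 6 h, against 526 FPKM at 1 h and was not called. Endodermal CASP1, given below, went the other way and was higher at 6 h than at 1 h. The part of these cell types in the wall results was not tested.

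Other genes in the fall classes named by size included AT3G05150, a sugar transporter family gene (1.31 at 6 h against 39.4 at 1 h), a late fall. Among further falls, GH9B13, an endoglucanase family gene, was at 87.7 FPKM in the dark, 51.1 at 1 h and 1.38 at 6 h. UMAMIT4, of an amino acid transporter family, was at 57.5 FPKM in the dark, 27.4 at 1 h and 0.654 at 6 h. AT4G25260, a pectin methylesterase inhibitor family gene, was at 218 FPKM in the dark, 64.5 at 1 h and 3.36 at 6 h. All 3 came down in both intervals and were 19.2-fold to 41.9-fold lower at 6 h than at 1 h.

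The SAURs are small auxin-up RNAs, many of which promote cell expansion. Of 62 tested SAUR genes 2 fell, a share near the 2.9% of all genes, and none rose, while 27 of the 60 members at 1 FPKM or more were at least 2-fold lower and 7 at least 2-fold higher (median log2 ratio over the 62, -0.80). SAUR25 was at 1.02 FPKM at 6 h, against 12.5 FPKM at 1 h (log2 difference -3.61 ± 1.1 SE), and SAUR52 was at 1.15 FPKM at 6 h, against 8.80 FPKM at 1 h (log2 difference -2.93 ± 0.84 SE). SAUR19, SAUR20 and SAUR21, of the group best known for promoting hypocotyl growth, were at 3.46 at 6 h against 10.8 at 1 h, 10.9 at 6 h against 29.7 at 1 h and 8.06 at 6 h against 24.8 at 1 h in FPKM; SAUR50, also well expressed, was at 32.4 at 6 h against 84.9 at 1 h. None of these 4 was called. On the other side, SAUR40 (8.44 at 6 h against 1.41 at 1 h) and SAUR41 (23.1 at 6 h against 7.65 at 1 h) were higher and were not called. The family counted 18 further falls, 5 late falls and 5 late rises.

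Of 34 tested Aux/IAA and GH3 genes 4 fell and none rose (median -0.79), beside 2.9% fallen among all genes tested. IAA6 was at 1.1 FPKM at 6 h, against 19.0 FPKM at 1 h (log2 difference -4.11 ± 0.76 SE) and IAA19 at 14.8 FPKM at 6 h, against 60.5 FPKM at 1 h (log2 difference -2.03 ± 0.55 SE); both are auxin-response repressors that are themselves auxin induced, and both had been several-fold higher in the dark. GH3.5, which conjugates auxin to amino acids, was at 11.9 FPKM at 6 h, against 48.3 FPKM at 1 h. IAA28 was different in course, at 31.9 FPKM in the dark, 215 at 1 h and 59.4 at 6 h, a transient rise. Of 23 auxin synthesis and transport genes YUC8 (0.712 at 6 h against 5.42 at 1 h) and the efflux carrier PIN4 (21.9 at 6 h against 80.2 at 1 h) fell and none rose (median -0.46).

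Of 21 tested genes known to be high in shade or darkness, 5 fell and none rose (median -1.23): ASN1, IAA19, XTH15, PAR2 and RVE1. The share fallen over all genes tested was 2.9%. PAR2, an inhibitor of shade growth, was at 5.43 FPKM at 6 h, against 68.8 FPKM at 1 h (12.7-fold lower; log2 difference -3.66 ± 0.67 SE), and was late, with 62.8 FPKM in the dark. XTH15 was at 19.7 FPKM at 6 h, against 101 FPKM at 1 h. RVE1 is described with the clock. Of 28 starvation and dark-inducible genes ASN1 and DIN2, a beta-glucosidase (0.364 at 6 h against 4.28 at 1 h), fell and none rose (median -0.46). SEN1, a classic dark marker, was at 353 FPKM in the dark, 29.1 at 1 h and 10.3 at 6 h and was not called between the light times. ASN2, the light-associated asparagine synthetase, moved opposite to ASN1, at 60.3 FPKM at 6 h, against 13.3 FPKM at 1 h (log2 difference 2.18 ± 0.60 SE).

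The hormone lists outside auxin are read against the 2.9% of all tested genes that fell. Of 46 gibberellin and brassinosteroid genes only BR6OX1, a brassinosteroid oxidase (2.53 at 6 h against 9.50 at 1 h), fell and none rose (median -0.48). Of 27 ethylene and apical hook genes ACS5 (0.539 at 6 h against 5.03 at 1 h), ACO5 (40.3 at 6 h against 158 at 1 h) and TEM2 fell and none rose (median -0.32); ACS and ACO enzymes make ethylene. Of 22 jasmonate genes JAZ6, a repressor, fell (9.88 at 6 h against 32.3 at 1 h) and none rose (median -0.66). Of 37 rapid stress regulators WRKY46, WRKY70 and TEM2 fell and none rose (median -0.60).

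**Figure D3:**
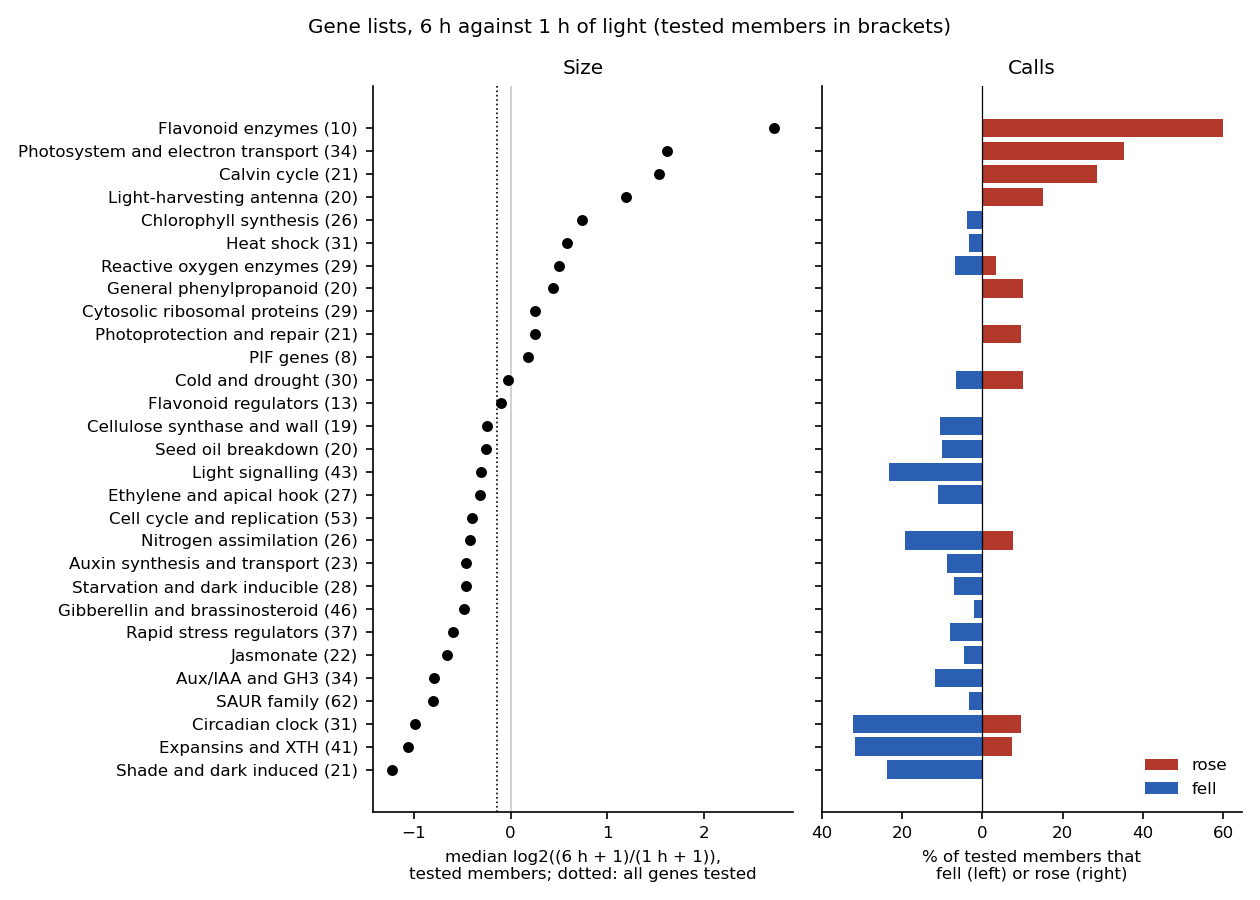
Left, the median log2((6 h + 1)/(1 h + 1)) of the tested members of each gene list (points), with the median of all 19497 genes tested as a dotted line at -0.14; right, the percentage of tested members that rose (red) or fell (blue). Flavonoid enzymes and 3 chloroplast lists stand at the top with rises only, and the clock, expansin and XTH, and shade lists at the bottom with mostly falls.

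Of 31 clock genes, all tested, 12 were transient rises, against 2.17% of all genes, and 10 fell while 3 rose in the direct test (median log2 ratio -0.99). CCA1 and LHY are the paired morning repressors. CCA1 (chr2:19245672-19248914) was at 19.9 FPKM in the dark, 107 at 1 h and 5.85 at 6 h, a fall of 18.3-fold between the light times (log2 difference -4.20 ± 0.53 SE). LHY (chr1:33379-37871) was at 13.8 FPKM in the dark, 64.2 at 1 h and 4.22 at 6 h (15.2-fold lower; log2 difference -3.93 ± 0.53 SE). Both ended below the dark level by the authors' q. PRR9, a repressor of CCA1 and LHY, was at 3.79 FPKM in the dark, 36.9 at 1 h and 2.96 at 6 h (log2 difference -3.64 ± 0.62 SE) and ended at a level not called against dark. LNK3, of a family that works with RVE8, was at 59.3 FPKM in the dark, 102 at 1 h and 4.36 at 6 h (23.3-fold lower; log2 difference -4.54 ± 0.61 SE). LNK2 (5.47 at 6 h against 46.6 at 1 h), LNK4 (13.7 at 6 h against 94.0 at 1 h), the activator RVE8 (8.99 at 6 h against 54.0 at 1 h) and RVE1 (10.8 at 6 h against 39.3 at 1 h), which links the clock to auxin, fell as well. CDF5 (3.01 at 6 h against 32.0 at 1 h) and CHE, a CCA1 repressor (19.7 at 6 h against 64.0 at 1 h), were falls that had not risen at 1 h.

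Among clock genes of the later day, 3 rose and others were not called. ELF4, of the evening complex, was at 703 FPKM at 6 h, against 208 FPKM at 1 h (log2 difference 1.76 ± 0.55 SE). FKF1, a blue-light receptor that acts in the afternoon, was at 9.64 FPKM at 6 h, against 1.27 FPKM at 1 h (log2 difference 2.92 ± 0.71 SE). GRP7, an RNA-binding clock output, was at 2231 FPKM at 6 h, against 736 FPKM at 1 h (log2 difference 1.60 ± 0.51 SE). FKF1 and GRP7 were not called against dark at 1 h and were above it at 6 h, while ELF4 was above dark at both times. TOC1, at 53.3 FPKM at 6 h, against 29.6 FPKM at 1 h, GI, at 53.5 FPKM at 6 h, against 73.0 FPKM at 1 h, and LUX, at 63.9 FPKM at 6 h, against 51.8 FPKM at 1 h, were not called.

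The promoters of 5 of these clock genes are shown as examples of 2 motifs, 3 from transient rises and 2 from genes that rose. In the 250 bases before the gene start of the RefSeq annotation of TAIR10.1, read in the direction of the gene, CACGTG (the G-box core, its own reverse complement) is in capitals, and so is AAAATATCT or its reverse complement (the evening element). The CACGTG set is CCA1 (chr2:19245341-19245590, plus strand), PRR9 (chr2:19232357-19232606, plus strand) and LNK3 (chr3:3923265-3923514, plus strand). Counting back from the gene start, the matches begin at -193 in CCA1, at -244 and -172 in PRR9, and at -171 and -141 in LNK3.
CCA1: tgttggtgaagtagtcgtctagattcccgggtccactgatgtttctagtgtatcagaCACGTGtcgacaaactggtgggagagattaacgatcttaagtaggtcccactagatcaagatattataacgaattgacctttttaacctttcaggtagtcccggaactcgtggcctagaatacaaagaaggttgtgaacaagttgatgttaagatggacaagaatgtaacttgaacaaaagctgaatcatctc
PRR9: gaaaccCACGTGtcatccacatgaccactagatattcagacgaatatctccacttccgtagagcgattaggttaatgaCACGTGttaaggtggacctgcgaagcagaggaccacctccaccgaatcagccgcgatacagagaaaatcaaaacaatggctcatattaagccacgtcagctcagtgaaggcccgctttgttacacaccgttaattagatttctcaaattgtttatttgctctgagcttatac
LNK3: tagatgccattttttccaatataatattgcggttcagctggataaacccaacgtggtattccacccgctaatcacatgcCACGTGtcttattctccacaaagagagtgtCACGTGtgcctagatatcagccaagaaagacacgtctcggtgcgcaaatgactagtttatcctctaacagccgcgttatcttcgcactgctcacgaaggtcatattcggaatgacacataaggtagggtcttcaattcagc
The AAAATATCT set is FKF1 (chr1:25508389-25508638, plus strand) with 1 match, at -186, and GRP7 (chr2:9266558-9266807, minus strand) with 3, at -76, -55 and -31.
FKF1: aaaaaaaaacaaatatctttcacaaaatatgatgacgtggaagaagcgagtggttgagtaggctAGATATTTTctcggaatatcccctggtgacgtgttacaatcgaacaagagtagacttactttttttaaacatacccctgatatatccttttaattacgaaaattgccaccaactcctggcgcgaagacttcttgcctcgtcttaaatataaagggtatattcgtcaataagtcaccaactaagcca
GRP7: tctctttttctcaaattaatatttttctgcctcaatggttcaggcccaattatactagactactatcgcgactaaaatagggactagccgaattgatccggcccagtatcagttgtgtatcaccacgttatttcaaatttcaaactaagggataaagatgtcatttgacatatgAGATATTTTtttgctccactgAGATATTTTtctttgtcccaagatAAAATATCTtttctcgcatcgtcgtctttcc
Of the 12 clock genes in the transient rise class, 6 (CCA1, LHY, LNK3, PRR9, RVE1 and RVE2) hold CACGTG and 0 hold AAAATATCT. Of the other 19, 4 hold CACGTG and 7 hold AAAATATCT (BOA, FKF1, GRP7, LUX, PRR5, RVE7 and TOC1). Over the promoters of 19192 genes with test status OK at both times, 7.49% hold CACGTG and 2.45% hold AAAATATCT.

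Light signalling genes also held transient rises. Of 43 tested, 10 fell and none rose (median log2 ratio -0.31), beside 2.9% fallen among all genes tested. Transient rises were 12 of the 44 members, against 2.17% of all genes. HY5, the bZIP factor that promotes de-etiolation (chr5:3593380-3594992), was at 43.8 FPKM in the dark, 311 at 1 h and 106 at 6 h, and fell between the light times (log2 difference -1.56 ± 0.50 SE) while staying above dark. Its homologue HYH was at 6.75 FPKM in the dark, 116 at 1 h and 181 at 6 h and was not called between them. The B-box genes BBX30, BBX31 and BBX32, small proteins that modulate HY5-related transcription, all peaked at 1 h. BBX30 was at 37.0 FPKM in the dark, 548 at 1 h and 62.9 at 6 h (8.71-fold lower; log2 difference -3.12 ± 0.58 SE). BBX31 (20.5 at 6 h against 129 at 1 h), BBX32 (5.50 at 6 h against 44.0 at 1 h), BBX28 (26.2 at 6 h against 122 at 1 h), BBX29 (6.81 at 6 h against 42.5 at 1 h) and BBX19 (5.43 at 6 h against 25.9 at 1 h) fell too. RUP1, which returns the UV-B receptor to its inactive state, was at 40.1 at 6 h against 213 at 1 h, and PKS1, a phytochrome kinase substrate, was at 48.2 at 6 h against 283 at 1 h (log2 difference -2.56 ± 0.56 SE). PKS2 (7.61 at 6 h against 27.6 at 1 h), from the same family, was a late fall.

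Photoreceptor and PIF genes were not among the calls. PHYA, the light-labile phytochrome, was at 149 FPKM in the dark, 87.0 at 1 h and 44.7 at 6 h; it was below dark at both times and was not called between them (log2 difference -0.96 ± 0.57 SE). PHYB was at 32.5 FPKM at 6 h, against 39.4 FPKM at 1 h and CRY2, a cryptochrome, at 82.4 FPKM at 6 h, against 83.2 FPKM at 1 h. Of 8 PIF genes none rose or fell, beside 4.04% called among all genes tested. Few calls would be expected in a list of this size. None was past 2-fold on the log2 ratio (median 0.18), which adds 1 FPKM to each value. In FPKM alone, PIL1 was 2.57-fold higher (3.869 at 6 h against 1.504 at 1 h) and PIF7 2.09-fold (4.220 at 6 h against 2.022 at 1 h). PIL1 stood at 13.44 FPKM in the dark and was below dark at both light times by the authors' q. PIF4 was at 15.8 FPKM at 6 h, against 13.4 FPKM at 1 h, and PIF5 at 23.8 FPKM at 6 h, against 25.1 FPKM at 1 h. These levels are of RNA and say nothing of protein.

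The BBX30 promoter (chr4:8708591-8708840, plus strand) and that of CHS (chr5:4488226-4488475, plus strand), a further rise, are shown as examples of a G-box in genes called at 1 h that then took opposite courses. The match, in capitals, begins at -72 in BBX30 and at -233 in CHS.
BBX30: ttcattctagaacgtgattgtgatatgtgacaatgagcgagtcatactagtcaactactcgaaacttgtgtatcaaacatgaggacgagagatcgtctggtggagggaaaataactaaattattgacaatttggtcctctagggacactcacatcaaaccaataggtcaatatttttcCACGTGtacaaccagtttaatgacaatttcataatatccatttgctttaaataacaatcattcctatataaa
CHS: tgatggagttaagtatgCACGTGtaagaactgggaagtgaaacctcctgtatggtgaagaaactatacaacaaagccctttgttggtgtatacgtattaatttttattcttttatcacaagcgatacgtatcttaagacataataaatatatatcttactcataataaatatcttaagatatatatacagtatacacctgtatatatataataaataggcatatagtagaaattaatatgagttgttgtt
Among transient rises, 68 of 424 promoters (16%) hold CACGTG, as do 42 of 357 further rises (11.8%), 38 of 741 late rises (5.13%), 73 of 933 late falls (7.82%), 21 of 265 further falls (7.92%) and 0 of 40 transient falls. ACGT, which every CACGTG match contains, is in 61.6% of transient rises and in 44.4% of all 19192. Of 17 flavonoid enzyme promoters 6 hold CACGTG. The heat shock element core GAANNTTC was in 9.23%, TGTCTC, an auxin response element, in 10.7%, and CATGCA in 7.44% of the 19192, and the classes lay between 5% and 12.1% for these 3. All motifs were searched on both strands. A match describes these letters only and is not a tested site.

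**Figure D4:**
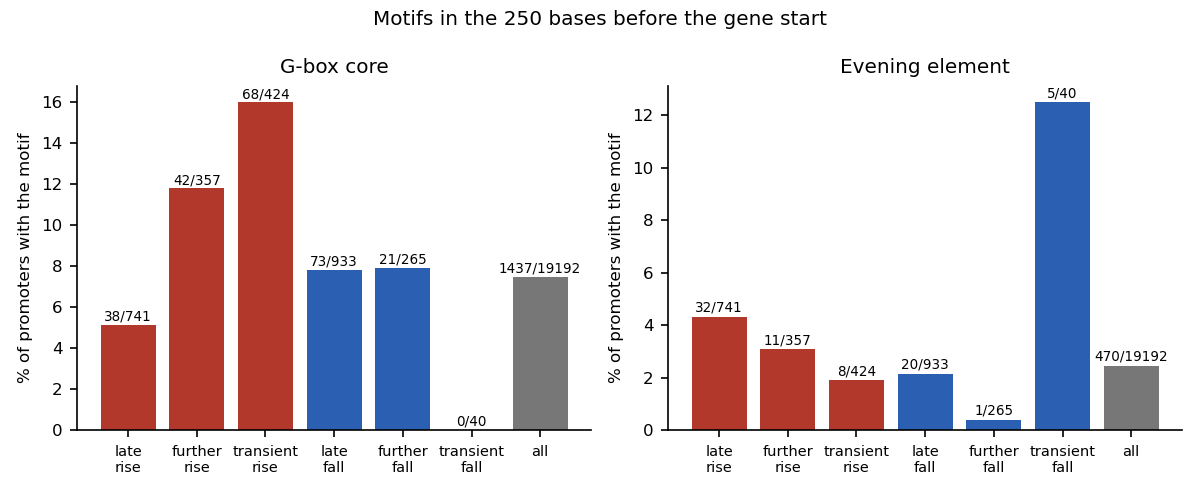
Percentage of promoters (250 bases before the gene start) that hold the G-box core (left) or the evening element (right) on either strand in each timing class and in all 19192 genes with test status OK at both times; fractions above the bars are promoters with the motif over promoters searched, and bars have no error because they are counts of fixed sequences. Transient rises have the highest bar for the G-box core (16%) and transient falls the highest for the evening element (12.5%, from 40 promoters).

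Other transient rises came from metabolism and stress. AT5G15950, an S-adenosylmethionine decarboxylase gene of polyamine synthesis, was at 11.5 FPKM in the dark, 119 at 1 h and 4.64 at 6 h (log2 difference -4.67 ± 0.58 SE), at a shared locus. MDHAR, a monodehydroascorbate reductase (25.34 FPKM in the dark, 50.4 at 1 h and 1.76 at 6 h), and MSRB7, a methionine sulfoxide reductase (56.0 FPKM in the dark, 93.8 at 1 h and 4.099 at 6 h), fell to levels far under both earlier ones. AT5G58750, an NAD(P)-binding protein gene, was at 10.2 FPKM in the dark, 27.1 at 1 h and 1.098 at 6 h. All 4 ended below dark by the authors' q. The glyoxylate cycle genes ICL (87.2 FPKM in the dark, 266 at 1 h and 40.2 at 6 h) and MLS (5.83 FPKM in the dark, 11.1 at 1 h and 1.75 at 6 h) also peaked at 1 h and were the 2 that fell of 20 tested seed oil breakdown genes, none of which rose (median -0.26).

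Some nutrient genes were transient rises too. Of 26 tested nitrogen and sulfur assimilation genes 5 fell and 2 rose (median -0.42), and 5 were transient rises. The shares over all genes were 2.9% fallen, 1.14% risen and 2.17% transient rises. APR1, which reduces sulfate, was at 9.004 FPKM in the dark, 17.0 at 1 h and 3.88 at 6 h, APR2 at 9.49 FPKM in the dark, 31.8 at 1 h and 9.42 at 6 h, and the sulfate transporter SULTR1;2 at 2.47 FPKM in the dark, 6.64 at 1 h and 0.777 at 6 h. The nitrate transporters NRT1.1 (25.27 at 6 h against 176 at 1 h) and NRT1.5 (29.0 at 6 h against 145 at 1 h) fell late. The 2 that rose were ASN2 and GLU1, the leaf ferredoxin-dependent glutamate synthase (44.4 FPKM at 6 h, against 6.62 FPKM at 1 h; log2 difference 2.74 ± 0.62 SE).

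Only 40 genes made the reverse turn, dipping at 1 h and recovering. CCL, a clock-controlled gene, was at 10.96 FPKM in the dark, 3.43 at 1 h and 48.4 at 6 h (log2 difference 3.82 ± 0.77 SE). COR27, a cold-regulated gene that represses clock and light genes, was at 3.44 FPKM in the dark, 1.44 at 1 h and 7.75 at 6 h (log2 difference 2.43 ± 0.79 SE). AT3G10020 was at 1091 FPKM in the dark, 422 at 1 h and 1628 at 6 h and AT5G22920 at 90.2 FPKM in the dark, 18.8 at 1 h and 90.6 at 6 h, with both back near or over their dark level. PTAC6, part of the plastid RNA polymerase complex, was at 16.4 FPKM in the dark, 10.2 at 1 h and 38.6 at 6 h, and AT5G24490, at a shared locus, at 24.0 FPKM in the dark, 10.9 at 1 h and 53.2 at 6 h. All 6 rose between 1 h and 6 h in the direct test. The promoter of CCL (chr3:9827432-9827681, plus strand) is shown because 5 of the 40 transient falls (12.5%) hold AAAATATCT, in capitals here or as its reverse complement, against 2.45% of all promoters searched. CCL is 1 of the 5, and the other classes held it in 0.377% to 4.32%. CCL has 1 match, at -93.
CCL: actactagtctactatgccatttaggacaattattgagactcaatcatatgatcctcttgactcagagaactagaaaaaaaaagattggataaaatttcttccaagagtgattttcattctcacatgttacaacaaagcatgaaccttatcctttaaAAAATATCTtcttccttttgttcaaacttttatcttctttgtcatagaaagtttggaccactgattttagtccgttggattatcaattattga
This share rests on 5 promoters.

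Temperature and water stress genes were mixed. Of 30 cold and drought genes 3 rose and 2 fell (median -0.03). RAB18, a dehydrin, was at 66.0 FPKM at 6 h, against 6.45 FPKM at 1 h (log2 difference 3.35 ± 0.72 SE), and KIN1, a cold-induced small protein, was at 516 FPKM at 6 h, against 113 FPKM at 1 h (log2 difference 2.19 ± 0.67 SE); COR27 was the third. ABF3, an abscisic acid response factor, was at 149.8 FPKM in the dark, 378 at 1 h and 95.6 at 6 h, and RD20, a caleosin, at 8.23 FPKM in the dark, 42.4 at 1 h and 8.93 at 6 h; both were transient rises. Of 31 tested heat shock genes 1 fell and none rose (median 0.58), near the 2.9% and 1.14% of all genes tested. Of the 30 at 1 FPKM or more, 11 were at least 2-fold higher, beside 7.18% of all genes at that level. HSFA1E fell (5.99 at 6 h against 22.8 at 1 h), while HSFA2 (110.2 at 6 h against 51.1 at 1 h), HSP101 (86.1 at 6 h against 39.5 at 1 h) and HSP70 (755 at 6 h against 295 at 1 h) were not called. Of 29 reactive oxygen enzymes MDHAR and NDB2, an alternative NAD(P)H dehydrogenase (3.64 at 6 h against 16.0 at 1 h), fell and PRXQ, a plastid peroxiredoxin (61.0 at 6 h against 12.1 at 1 h), rose (median 0.50).

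Growth machinery held no calls, beside 4.04% called among all genes tested. At that share few calls would be expected in lists of this size. Of 29 cytosolic ribosomal protein and nucleolar genes none rose or fell and none was past 2-fold (median 0.26). Of 53 cell cycle and replication genes none rose or fell, with 1 past 2-fold in each direction (median -0.40). CDKB2;1, a mitotic kinase, was the lowest by log2 ratio (16.1 at 6 h against 34.1 at 1 h).

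The tissue label was set against markers of other tissues. The root, phosphate and iron list summed to 78.4 FPKM in the dark, 75.5 at 1 h and 47.0 at 6 h, with 9 of its 17 members under 1 FPKM in all 3 groups. Of its 10 tested members RHD2 (0.503 at 6 h against 3.74 at 1 h) and PHT1;1 (1.62 at 6 h against 7.79 at 1 h, with PHT1;2 as a near copy) fell and none rose (median -0.70). Shoot meristem and leaf markers summed to 177.4 FPKM in the dark, 202.1 at 1 h and 199.3 at 6 h, with 7 of 20 under 1 FPKM throughout and no call among 14 tested (median 0.03). Stomatal lineage markers summed to 21.1 FPKM in the dark, 23.8 at 1 h and 36.7 at 6 h, with 10 of 16 under 1 FPKM throughout; of 7 tested the potassium channel gene AT5G46240 fell, from low values (0.0573 at 6 h against 1.72 at 1 h), and none rose (median 0.39). Seed storage genes summed to 5.57 FPKM in the dark, 4.87 at 1 h and 4.26 at 6 h, with 11 of 13 under 1 FPKM throughout and no call among 6 tested (median 0.05). Endodermal CASP1 (1104 at 6 h against 734 at 1 h) was abundant at both times. The part of these tissues in the results was not tested.

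Wild-type cotyledons collected under the same 3 conditions, with 3 samples each, gave the nearest comparison. The difference between organs (hypocotyl minus cotyledon of the log2 difference 6 h minus 1 h) was tested in 17829 genes by the same normal test with Benjamini-Hochberg adjustment. It was positive in 69 genes (0.387%) and negative in 184 (1.03%) at an adjusted p under 0.05. The median change was -0.15 in hypocotyls and -0.02 in cotyledons.

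Flavonoid enzymes were more positive in hypocotyls in 6 of 10 tested, with medians of 3.35 in hypocotyls and 0.18 in cotyledons. CHS was at 2815 FPKM at 6 h against 83.1 at 1 h in hypocotyls, and 1203 at 6 h against 659 at 1 h in cotyledons (difference 4.21 ± 1.07 SE). FLS1 was at 411 FPKM at 6 h against 20.5 at 1 h in hypocotyls, and 96.6 at 6 h against 105 at 1 h in cotyledons. In both genes the 1 h value was lower in hypocotyls than in cotyledons, and the 6 h value was higher. The photosystem, antenna and Calvin cycle lists had no gene that passed the test of a difference between organs. At the shares of all genes tested (0.387% more positive and 1.03% more negative), few calls would be expected in lists of this size. The hypocotyl medians of these lists were 1.63, 1.24 and 1.54, and their cotyledon medians were 1.404, 1.44 and 0.97.

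Cold and drought genes were more positive in hypocotyls in 9 of 30, with medians of -0.03 in hypocotyls and -2.27 in cotyledons. RD29A, a desiccation-responsive gene, was at 724 FPKM at 6 h against 527 at 1 h in hypocotyls, and 17.41 at 6 h against 276 at 1 h in cotyledons (difference 4.44 ± 0.95 SE). KIN1 and LTI30 behaved likewise, with hypocotyl values higher and cotyledon values lower at 6 h than at 1 h. In the hypocotyl alone RD29A and LTI30 were not called.

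None of 32 Aux/IAA and GH3 genes and none of 20 auxin synthesis and transport genes passed the test of a difference between organs. Over all genes tested, 0.387% were more positive and 1.03% more negative in hypocotyls, so few calls would be expected in lists of this size. For Aux/IAA and GH3 genes the medians were -0.825 in hypocotyls and -0.075 in cotyledons. For auxin synthesis and transport genes they were -0.506 in hypocotyls and 0.595 in cotyledons. In the expansin and XTH list 7 of 35 were more negative and 1 was more positive, with medians of -1.44 in hypocotyls and 0.49 in cotyledons. EXPA1 was at 23.2 FPKM at 6 h against 125 at 1 h in hypocotyls, and 774 at 6 h against 125 at 1 h in cotyledons (difference -5.05 ± 0.79 SE). EXPB1 was at 3.04 FPKM at 6 h against 14.1 at 1 h in hypocotyls, and 34.5 at 6 h against 2.84 at 1 h in cotyledons. These genes were lower at 6 h in hypocotyls and higher at 6 h in cotyledons. XTH32 was the positive one, at 425 FPKM at 6 h against 60.4 at 1 h in hypocotyls, and 93.1 at 6 h against 174 at 1 h in cotyledons. Of 47 SAUR genes 3 were more negative (medians of -1.27 in hypocotyls and 0.54 in cotyledons): SAUR50, at 32.4 FPKM at 6 h against 84.9 at 1 h in hypocotyls, and 261 at 6 h against 32.7 at 1 h in cotyledons (difference -4.39 ± 0.84 SE), with SAUR16 and SAUR78. FLA9 was at 150.5 FPKM at 6 h against 1439 at 1 h in hypocotyls, and 547 at 6 h against 156 at 1 h in cotyledons (difference -5.06 ± 0.87 SE). In the clock, ELF4 was at 703 FPKM at 6 h against 208 at 1 h in hypocotyls, and 51.7 at 6 h against 191 at 1 h in cotyledons (difference 3.64 ± 0.81 SE), and CHE at 19.7 FPKM at 6 h against 64.0 at 1 h in hypocotyls, and 49.8 at 6 h against 5.82 at 1 h in cotyledons (difference -4.79 ± 0.79 SE), while the other 29 clock genes tested, CCA1, LHY and PRR9 among them, did not pass the test of a difference.

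**Figure D5:**
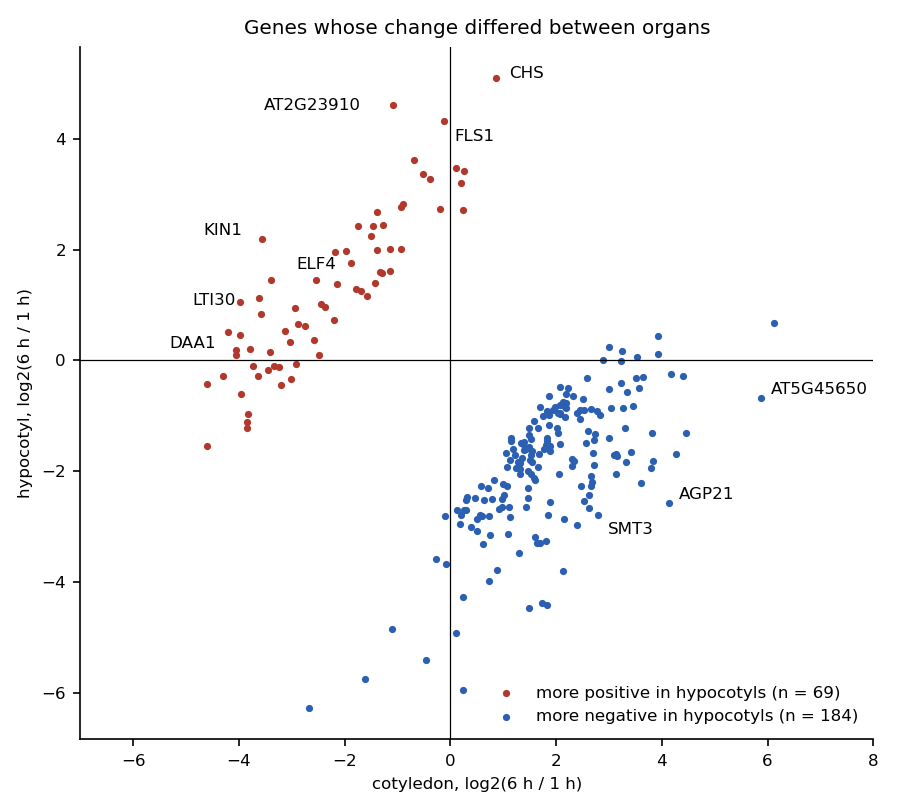
The 253 genes whose change between 6 h and 1 h differed between organs, with the log2 difference 6 h minus 1 h in hypocotyls (vertical) against that in cotyledons (horizontal), each from pooled group values; red points are more positive in hypocotyls (69) and blue points more negative (184), and error bars are left out for legibility. CHS and FLS1 were high in hypocotyls at little change in cotyledons, while AGP21 and SMT3 were lower at 6 h in hypocotyls and higher at 6 h in cotyledons.

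Among all genes, 7 carry a status in the deposited tables that marks them as too abundant to test. They are in no count of called genes, of genes past 2-fold or of timing classes, but their listed values are in the summed FPKM. AT2G37130 is listed at 4779 FPKM at 6 h, 6760 at 1 h and 0 in the dark. CAT3, a catalase, is listed at 3500 FPKM at 6 h and at 0 at 1 h and in the dark, and TIP2, a tonoplast aquaporin, at 7208 FPKM at 6 h and likewise at 0. These zeros cannot be read as absence.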

How the data were processed

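RNA from hypocotyls and cotyledons was sequenced on an Illumina HiSeq after Qiagen RNeasy extraction, per the labels' protocols. The submitters' processing notes name TopHat, Cufflinks and TAIR10; no version or role is given there. Each deposited table sets a light group against dark and holds, per gene, 1 pooled FPKM value per group, a log2 fold, a test statistic (a score), and the authors' p-value and q-value; loci are as the authors deposited them. The FPKM unit was inferred from the named tools and the values. The dark values of both hypocotyl tables were identical.

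The SE of each authors' log2 fold was taken as fold over test statistic, and the difference between light times was tested as described above, with Benjamini-Hochberg adjustment over 19497 genes. The design asked for a fit over samples had values per sample been given. Genes were named by rule: up to 8 largest called rises and falls and up to 6 per timing class at 5 FPKM or more, up to 4 called members per list and direction at 1 FPKM or more, 4 per direction of the organ difference, and 16 fixed genes; EXPB1, RD29A and the uncalled list members were added after their values were seen. The members, the 34 lists and the tests were chosen with earlier results of these data known. Of the list names, 44 matched no gene uniquely and were resolved by hand or left out. Promoters came from RefSeq TAIR10.1, whose genes overlapped all 23939 single-gene loci compared. The leftmost base, whatever the strand, was the same in 7493 and within 100 bases in 16428. Promoter windows and match positions are counted from the RefSeq start, which can lie apart from the deposited locus. For CHS the window ends at 4488475 and the deposited locus starts at 4488688. Near copies were found with BLAST at 95% identity over 50% of length. Analyses used Python 3.11.15, numpy 2.4.6, pandas 2.3.3, SciPy 1.17.1, matplotlib 3.10.9 and BLAST 2.17.0. The dark samples of the pifq mutant were not used here. Alternatives changed the SE, threshold, pseudocount, fold, low-value filter and centring.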

Additional observations from a re-analysis of the deposited data

Results flagged for a closer look

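The 8 genes below had a change between 6 h and 1 h that differed most clearly between organs (normal test of hypocotyl minus cotyledon with Benjamini-Hochberg adjustment over 17829 genes), 4 in each direction. KIN1, a cold-induced small protein, was at 516 FPKM at 6 h against 113 at 1 h in hypocotyls, and 20.1 at 6 h against 237 at 1 h in cotyledons (difference 5.75 ± 0.89 SE). AT2G23910 was at 214 FPKM at 6 h against 8.87 at 1 h in hypocotyls, and 33.0 at 6 h against 70.3 at 1 h in cotyledons (difference 5.69 ± 0.95 SE). LTI30, a dehydrin, was at 765 FPKM at 6 h against 352 at 1 h in hypocotyls, and 14.9 at 6 h against 182 at 1 h in cotyledons (difference 4.73 ± 0.78 SE). DAA1, an ATPase-domain gene, was at 14.4 FPKM at 6 h against 10.0 at 1 h in hypocotyls, and 4.47 at 6 h against 82.5 at 1 h in cotyledons (difference 4.73 ± 0.77 SE). In these 4 the 6 h value was above the 1 h value in hypocotyls and below it in cotyledons.

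AGP21, an arabinogalactan protein, was at 237 FPKM at 6 h against 1409 at 1 h in hypocotyls, and 1421 at 6 h against 81.2 at 1 h in cotyledons (difference -6.70 ± 0.85 SE). AT5G45650, a subtilase family gene, was at 8.41 FPKM at 6 h against 13.5 at 1 h in hypocotyls, and 24.6 at 6 h against 0.419 at 1 h in cotyledons (difference -6.55 ± 0.97 SE). SMT3, a sterol methyltransferase, was at 8.60 FPKM at 6 h against 59.5 at 1 h in hypocotyls, and 30.4 at 6 h against 4.40 at 1 h in cotyledons (difference -5.58 ± 0.76 SE). In these 3 the 6 h value was below the 1 h value in hypocotyls and above it in cotyledons. AT4G39366 was at 2.37 FPKM at 6 h against 146 at 1 h in hypocotyls, and 397 at 6 h against 336 at 1 h in cotyledons (difference -6.18 ± 0.51 SE), but the authors' q called it at neither time in hypocotyls, so its value is given without weight. DAA1, LTI30 and AT5G45650 were not called within hypocotyls alone.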

How the results depend on the processing

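No paired analysis was possible because the tables hold 1 pooled value per group, and for the same reason leaving out a replicate was not run. At an adjusted p under 0.01, 74 genes rose and 315 fell, against 222 and 565. With the SE taken from the authors' p-value, whose smallest value is 5.00e-05, 585 rose and 1481 fell, and 303 and 732 genes were more positive and more negative in hypocotyls than in cotyledons, against 69 and 184. With the larger of both SEs, an alternative chosen after seeing the data, 37 rose, 295 fell and 34 were more positive in hypocotyls. A pseudocount of 5 left 759 genes past 2-fold higher and 1060 lower. At 1.5-fold the classes held 1517 late rises, 2173 late falls, 412 further falls, 673 transient rises and 84 transient falls, and at a q of 0.01 the transient falls numbered 26. Of the 108 named genes called, 68 were still called at an adjusted p of 0.01, 99 after centring and 71 with the SE from the authors' p-value, and none turned direction. The list medians kept their sign except 3: after centring, cold and drought moved to 0.11 (from -0.03) and flavonoid regulators to 0.04 (from -0.10), and with a filter at 1 FPKM seed storage moved to -0.46 (from 0.05). With a pseudocount of 0.1, 7 medians moved by over 0.2 in the direction they had: flavonoid enzymes to 3.34, expansins and XTH to -1.44, SAURs to -1.20, shade to -1.45, root markers to -1.99, stomatal markers to 0.63 and seed storage to 0.28. The filter at 1 FPKM moved expansins and XTH to -1.36 and root markers to -0.97. The cause of these changes was not tested.

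The depth is unknown, and the median SE of a difference was 0.62 on the log2 scale (quartiles 0.54 and 0.86), so a 2-fold difference in a typical gene is below the size that passed the threshold at that SE.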
